A study of Mus musculus with 2 samples.

Results

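Interferon-stimulated genes are the genes that a cell switches on when an interferon binds its receptor. A list of 37 of them was followed through 2 libraries of mouse colon cells, 36 of which were found by symbol among the 32285 genes of the deposited tables; Mx1 was not analysed here. The list was set out by name and not by any measured value. Within it, Ifit1, Ifit3 and Isg15 served to find a small set of cells, those with at least 1 unique molecular identifier (UMI, a tag that marks 1 captured transcript) of each of the 3, so that the remaining 33 genes could be read in those cells without having served to choose them, although Ifit3b shares part of its transcript with Ifit3. The study compared γδ T cells, the lymphocytes whose receptor is built from a γ and a δ chain, between normal colon and colon tumor with 10x Genomics droplets, which read the 3' end of each transcript in single cells. The IEL library came from normal colon tissue and the TIL library from colon tumor. All animals were C57BL/6J mice aged 18 to 20 weeks, with no genotype or treatment given beyond the tumor itself and no number of animals per library. Each group was 1 library, so no test between the groups was possible: every difference below is between these 2 libraries, and bracketed 95% intervals (exact Poisson, exact binomial, or exact conditional for ratios) cover counting error only.

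Type I interferons bind the receptor made of Ifnar1 and Ifnar2. The kinases Jak1 and Tyk2 then act on Stat2, which takes part with Irf9 in a complex that binds interferon-stimulated response elements in front of its target genes. Interferon-γ acts through Ifngr1 and Ifngr2 and leads to binding at γ-activated sites. The products detect viral RNA or DNA, degrade or trap it, block translation or release of particles, and, like the protease Usp18, end the signal again.

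The promoters of the genes that chose the cells are shown first, beside those of Rsad2 and Oasl1, which were among the members with the largest differences in these cells, and of Irf1, which was picked after its values were seen because it differed least in the IEL library. Each line is the 250 bases before the RefSeq start of the gene (build GRCm38.p6), written 5′ to 3′ on the gene's strand. Capitals mark GAAA followed by any 2 bases and GAAA again, or TTTC, any 2 bases and TTTC for the other strand, which is the core of the response element; matches may overlap. In Irf1 they mark TTCNNNGAA, the γ-activated site, which reads the same on both strands.
Isg15 (chr4:156200819-156201068, minus strand): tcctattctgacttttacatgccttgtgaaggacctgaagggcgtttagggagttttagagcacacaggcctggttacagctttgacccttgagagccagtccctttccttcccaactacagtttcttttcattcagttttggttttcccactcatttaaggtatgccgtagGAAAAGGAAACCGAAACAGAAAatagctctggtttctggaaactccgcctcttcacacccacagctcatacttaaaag
Ifit1 (chr19:34640639-34640888, plus strand): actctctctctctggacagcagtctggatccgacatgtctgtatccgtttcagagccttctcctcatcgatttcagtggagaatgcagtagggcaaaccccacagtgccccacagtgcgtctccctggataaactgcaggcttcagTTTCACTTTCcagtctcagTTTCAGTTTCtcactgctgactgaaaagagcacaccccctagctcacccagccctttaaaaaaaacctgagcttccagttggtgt
Ifit3 (chr19:34583279-34583528, plus strand): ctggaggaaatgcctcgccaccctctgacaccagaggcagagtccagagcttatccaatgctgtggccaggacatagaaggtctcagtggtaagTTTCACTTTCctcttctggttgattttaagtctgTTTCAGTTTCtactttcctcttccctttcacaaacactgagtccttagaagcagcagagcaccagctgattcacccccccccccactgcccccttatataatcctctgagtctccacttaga
Rsad2 (chr12:26456453-26456702, minus strand): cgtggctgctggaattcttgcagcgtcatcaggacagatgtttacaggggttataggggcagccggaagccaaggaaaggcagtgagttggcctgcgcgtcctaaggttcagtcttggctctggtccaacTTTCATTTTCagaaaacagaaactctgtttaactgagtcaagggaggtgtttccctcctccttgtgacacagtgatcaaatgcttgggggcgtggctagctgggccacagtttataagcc
Oasl1 (chr5:114922990-114923239, plus strand): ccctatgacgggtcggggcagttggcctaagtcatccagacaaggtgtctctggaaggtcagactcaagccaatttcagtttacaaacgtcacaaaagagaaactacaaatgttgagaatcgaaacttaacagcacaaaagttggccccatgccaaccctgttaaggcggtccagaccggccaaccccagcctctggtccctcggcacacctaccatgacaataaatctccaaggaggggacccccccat
Irf1 (chr11:53769764-53770013, plus strand): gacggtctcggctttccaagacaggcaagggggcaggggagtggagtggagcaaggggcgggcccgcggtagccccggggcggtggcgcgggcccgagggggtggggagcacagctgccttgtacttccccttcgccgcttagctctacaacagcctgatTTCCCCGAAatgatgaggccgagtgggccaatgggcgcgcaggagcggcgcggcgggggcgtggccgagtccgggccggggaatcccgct
The Isg15 window held 3 overlapping matches that began 78, 72 and 66 bases before the start. The Ifit1 window held 2, beginning 104 and 85 bases before it, and the Ifit3 window 2, beginning 156 and 122 bases before it. Rsad2 had 1 match at 120 bases, Oasl1 none, and Irf1 none but a γ-activated site at 90 bases. The RefSeq table held 30 of the 37 genes by symbol, some with several starts. The response element letters were found in at least 1 window of 13 of these 30 genes (43.3%), against 3.46% of all 27025 genes in the table. The γ-activated site letters were found in 6 of 30 (20%), against 8.13% of all genes. A match describes letters and is neither a bound site nor a cause, and a window with no match says nothing of the factor.

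After filtering, 9087 IEL cells (99.55% of those kept, median 6854 UMIs) and 11789 TIL cells (95.02%, median 6392 UMIs) lay in clusters carrying T cell markers, and are called T-like. A Cd3 chain transcript was found in 99.90% of the IEL and 99.96% of the TIL T-like cells. A smaller share of the IEL library met a strict rule for γδ T cells. It asked for a δ or γ constant-region UMI and no UMI of Trac, the constant region of the αβ receptor. In IEL 22.1% of T-like cells met it, against 62.2% in TIL, and 77.8% of IEL T-like cells had a Trac UMI against 37.6%. Trdc, the δ constant region, still stood above Trac in every cluster made up mostly of IEL cells. In CPM, as set out in the next paragraph, cluster 7 had 724 of Trdc against 462.5 of Trac, and cluster 4 had 826 against 166. Cluster 1, of TIL cells, had 4166 against 82.2 CPM. Whether cells with a Trac UMI were αβ T cells was not tested. The libraries also differed in the subsets named from marker genes. Cytotoxic-like cells were 6632 of the IEL T-like cells and 366 of the TIL ones, and IL-17-type-like cells were 57 and 9753. A recirculating-like cluster of 699 cells and an unnamed cluster, number 10, of 718 cells (led by Gzmc, Mcpt2 and Mcpt1) lay in TIL. The libraries shared 33 cell barcodes, none of them of a cell that carried Ifit1, Ifit3 and Isg15 together.

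Outside the co-expressing cells, 9 of the 19 measured genes fell short of the IEL level 2-fold or more in the TIL library, and 1 exceeded it. Levels are CPM, the UMIs of a gene per 1000000 UMIs, both summed over the cells. They are not scaled by gene length, and each gene is compared only with itself. A gene counted as measured where at least 1 of the libraries reached 20 CPM, and as apart at a ratio of 2-fold. Over all T-like cells, 19 of the 36 genes were measured. Of these, 1 was higher and 9 were lower in TIL, with the same counts once the co-expressing cells were left out, whereas 11.1% of all measured genes were higher and 13.9% lower (11.1% and 13.8% without those cells). The median log2 ratio of the 19 genes was -0.90 without the co-expressing cells, against -0.10 over all 6330 measured genes. A floor on the mean of both libraries, which favours neither, left 16 genes, of which 1 was higher and 6 were lower (10.2% and 11.6% of all genes), with a median of -0.77. The measured genes that differed less than 2-fold were Isg15, Isg20, Irf9, Bst2, Ifi35, Zbp1, Parp14, Trim30a and Samd9l.

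**Figure D1:**
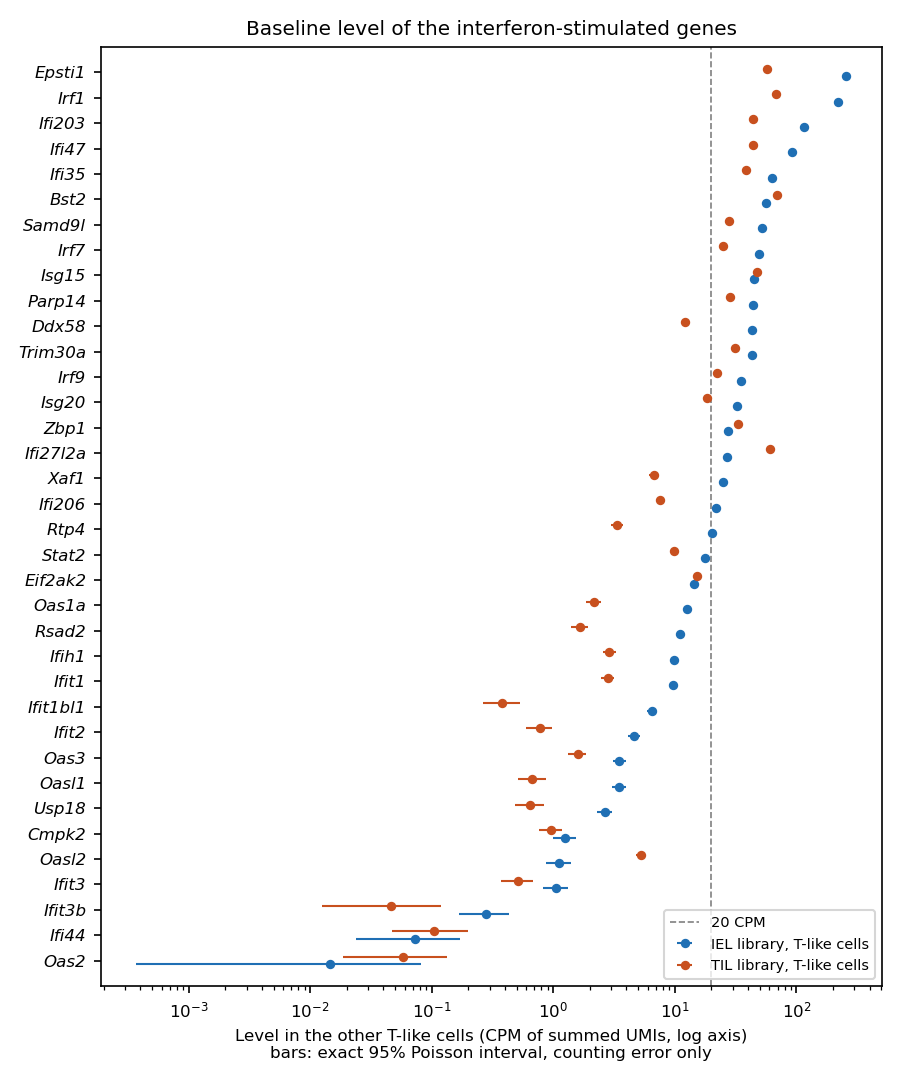
Level of each of the 36 genes in the T-like cells that did not co-express Ifit1, Ifit3 and Isg15, in CPM of summed UMIs on a log axis, with 1 point per library (IEL blue, TIL orange) and bars for the exact 95% Poisson interval. Most TIL points lie left of the IEL points, while Ifi27l2a lies to the right at 60.2 against 27.0 CPM.

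Among the transcription factors, Irf1, an interferon-induced factor, stood at 219 CPM in IEL against 68.6 CPM in TIL (log2 ratio -1.68, -1.72 to -1.63). Irf7, the factor that amplifies type I interferon production, stood at 49.7 and 24.8 CPM (-1.01, -1.09 to -0.93). These were differences of 2-fold or more, while Irf9 stood at 34.9 and 22.4 CPM and did not reach that size. Among the sensors, Ddx58, the gene of the RNA helicase RIG-I, stood at 43.2 CPM in IEL against 12.04 CPM in TIL (-1.84, -1.95 to -1.74). Zbp1, a sensor of Z-form nucleic acid, went the other way by less than 2-fold, with 27.6 CPM in IEL and 32.99 CPM in TIL.

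Among the effectors, Isg15, a ubiquitin-like protein that is joined to other proteins, was nearly level, with 44.9 CPM in IEL and 47.2 CPM in TIL (0.07, 0.00 to 0.14). Bst2, which tethers budding virus to the cell surface, was near level too, at 56.2 and 69.2 CPM (0.30, 0.24 to 0.36). Rtp4, a zinc-finger protein induced by interferon, passed the floor only through IEL, with 20.4 CPM in IEL and 3.35 CPM in TIL (-2.61, -2.79 to -2.42). Epsti1 had the largest difference among the genes above a mean of 20 CPM, with 255 and 57.7 CPM (-2.14, -2.19 to -2.10), and Xaf1, a partner of an inhibitor of apoptosis, with 25.1 and 6.72 CPM (-1.90, -2.04 to -1.76). The other lower genes were Ifi203 and Ifi206, of the family of DNA-binding p200 proteins, at -1.40 and -1.52, and the GTPase gene Ifi47 at -1.08. The gene higher in TIL was Ifi27l2a, an interferon-induced gene of a mitochondrial and nuclear envelope family, at 27.0 CPM in IEL against 60.2 CPM in TIL (1.16, 1.08 to 1.24).

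The remaining 17 genes lay below 20 CPM in both libraries. They included the genes that are near silent without interferon: Ifit1, whose protein binds RNA that lacks the host cap, stood at 9.71 CPM in IEL against 2.80 CPM in TIL, and its partner Ifit3 at 1.06 and 0.508 CPM. Rsad2, the gene of viperin, which makes a chain-terminating nucleotide, stood at 11.1 and 1.65 CPM (-2.75, -3.02 to -2.49). Oas1a, an enzyme that makes the signal for RNA decay, stood at 12.7 and 2.16 CPM (-2.55, -2.79 to -2.32). Against that direction, Oasl2, a relative of the same enzyme family, was at 1.11 CPM in IEL against 5.23 CPM in TIL (2.23, 1.88 to 2.60). Ifit3b, at 0.279 and 0.0462 CPM, Ifi44 and Oas2 had fewer than 20 UMIs in either library, too few for a comparison. Of the last 300 bases of the transcript, from which these libraries are read, 47.8% of the Oas1a stretch was shared by 31-base words with Oas1g, 17.4% of that of Ifit3 with Ifit3b, and 17.0% of that of Ifit1bl1 with Ifit1bl2. Of the Oas3 stretch 47.4% was shared with other genes (15.2% with Gm38386), and of that of Isg15 15.2%. The split of reads between these genes and the others is uncertain.

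Within cytotoxic-like cells fewer genes were 2-fold apart between the libraries, although these cells lay mostly in clusters 6, 7, 8 and 9 in IEL and in cluster 12 in TIL. There, 21 genes were measured, with 2 higher and 3 lower in TIL, against 4.36% and 6.29% of all measured genes, and their median log2 ratio was -0.08 (all genes -0.03). Irf1 stood at 204 CPM in IEL against 191 CPM in TIL cytotoxic-like cells (-0.10, -0.25 to 0.05), and Irf7 at 52.1 and 46.8 CPM (-0.16, -0.47 to 0.14). Both lay within 2-fold. Epsti1, at 272 and 99.1 CPM (-1.46, -1.67 to -1.25), Ifi206 (-1.49) and Rtp4 (-1.25) were lower in TIL there too. Isg15 was higher in the TIL cells, at 106 against 51.0 CPM (1.05, 0.84 to 1.25), as was Ifi27l2a at 84.0 against 24.7 CPM (3.40-fold). With a cell-by-cell rule for cytotoxic cells (4222 IEL and 425 TIL cells), 1 gene was higher and 1 lower. Cycling-like cells, which both libraries also held (mostly 96 IEL cells of cluster 18 and 127 TIL cells of cluster 17), differed more: Irf1 stood at 152 CPM in IEL against 51.9 CPM in TIL, Irf7 at 46.1 against 15.6 CPM and Epsti1 at 232 against 54.3 CPM. These 2 clusters were unlike in other markers. At 50 CPM or more, cluster 17 had 7 IL-17-type and 4 cytotoxic markers, and cluster 18 had 0 and 8. The part of subset in these differences was not tested.

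Within the TIL library, the baseline depended on the subset. Summed over all 36 genes, IL-17-type-like cells carried 576 CPM, the cycling-like cells 572 CPM, cluster 10 1103 CPM, cytotoxic-like cells 1290 CPM, cluster 19 (77 cells, led by Tnfrsf4, Foxp3 and Ctla2a) 1546 CPM and recirculating-like cells 1956 CPM. The IEL subsets lay closer together, from 1227 CPM in cycling-like to 1403 CPM in cytotoxic-like cells. The IL-17-type-like cells, which made up most of the TIL library, thus stood lowest with the cycling-like cells. The sums lean on a few genes, and Ifi27l2a alone gave 728 CPM of that of cluster 19. By the median over the 36 genes, the order was 7.19 CPM in cycling-like, 7.62 in IL-17-type-like, 11.7 in cluster 19, 15.01 in cluster 10, and 17.4 CPM in both cytotoxic-like and recirculating-like cells of TIL, against 22.5 CPM in IEL cytotoxic-like cells. The clusters were built without these genes and without other interferon-stimulated genes.

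Against the IL-17-type-like cells, and with a floor of 20 CPM set in those cells, recirculating-like cells had 9 of 14 genes past 2-fold upwards and 0 downwards, where 3.93% of all genes were higher and 25.4% lower. Cytotoxic-like cells of TIL had 9 of 14 higher (5.72% of all genes), and cluster 10 had 5 of 14 (2.88%). Recirculating-like cells had 96.0 CPM of Irf7 against 20.2 CPM in IL-17-type-like cells, 175 against 58.1 CPM of Irf1, 264 against 35.8 CPM of Epsti1 and 147 against 65.0 CPM of Bst2. In CPM, Ifi27l2a had the widest range, from 29.4 CPM in IL-17-type-like to 523 CPM in recirculating-like cells and 728 CPM in cluster 19. As a ratio, low genes spread further, such as Ifit3 from 0.0964 to 8.65 CPM and Usp18 from 0.124 to 9.19 CPM between IL-17-type-like and recirculating-like cells. Without these last 2 clusters the TIL over IEL log2 ratio of Ifi27l2a was 0.35, below 2-fold, although it was also higher in TIL within cytotoxic-like cells. Myeloid-like cells of the same library, 229 in number, held 367 CPM of Ifi27l2a, 261 CPM of Bst2 and 153 CPM of Isg15. The macrophage or monocyte list summed to 29.0 CPM and the haemoglobin-led erythroid list to 1271 CPM in the other TIL T-like cells, against 3.15 and 0.191 CPM in IEL; the part of RNA from other cells in the low levels of the TIL library was not tested.

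**Figure D2:**
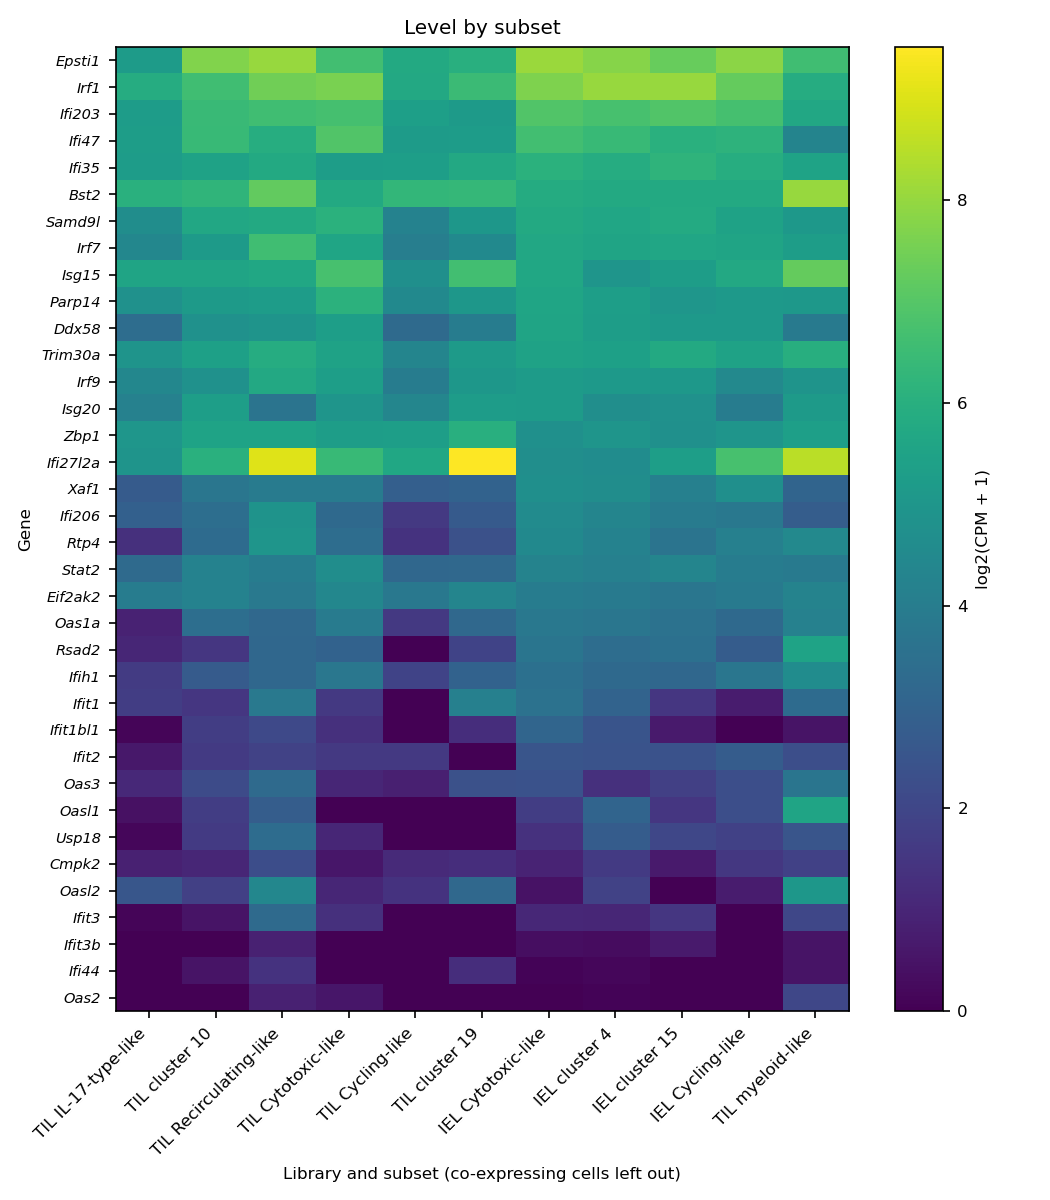
Level of each of the 36 genes (rows, ordered by their IEL level) in each subset of each library (columns), as log2(CPM + 1) in colour, with the co-expressing cells left out. Recirculating-like cells and cluster 19 stand out in the Ifi27l2a row, at 523 and 728 CPM, and the IL-17-type-like column is dark for most rows.

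In both libraries very few cells carried Ifit1, Ifit3 and Isg15 together. They were 15 of 9087 IEL T-like cells (0.165%, 0.0924 to 0.272) and 17 of 11789 TIL T-like cells (0.144%, 0.0840 to 0.231), and these intervals overlap. Isg15 was the common gene of the 3, with a UMI in 25.0% of IEL and 20.1% of TIL cells, Ifit1 had 1 in 6.27% and 1.66%, and Ifit3 in 0.858% and 0.484%. A UMI of Ifit3 was therefore the limiting condition. Most other cells had 0 of the 3 genes (6386 IEL and 9289 TIL cells) or 1 (2501 and 2400), and 185 IEL and 83 TIL cells had 2. The cells with all 3 were no deeper than the rest, with medians of 6753 UMIs in IEL and 5129 UMIs in TIL, against 6729 and 6305 UMIs in cells with 0 of the 3.

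The co-expressing cells of the 2 libraries came from different subsets, but so did the T-like cells as a whole. Most IEL T-like cells were cytotoxic-like, and only 18 IEL cells lay in the recirculating-like cluster and 13 in cluster 10. Every co-expressing cell of both libraries had a Trdc UMI, so the rule for γδ cells turned on Trac alone. A receptor constant-region UMI of the γδ kind and no Trac UMI was found in 2 of the 15 IEL cells and in 13 of the 17 TIL cells. Among all T-like cells of that kind these were 0.0998% in IEL and 0.177% in TIL. Of the 15 IEL cells, 13 were cytotoxic-like, 1 lay in cluster 4 (2047 cells, led by Klra7, Rbpms and Id3) and 1 in cluster 15 (223 cells, led by Wnt11, Bend4 and Xcl1). Of the 17 TIL cells, 10 were recirculating-like, 6 lay in cluster 10 and 1 was IL-17-type-like. As shares of their subsets these were 1.43% of recirculating-like cells (0.688 to 2.62), 0.836% of cluster 10 (0.307 to 1.81) and 0.0103% of IL-17-type-like cells (0.000260 to 0.0571). None of the 366 TIL cytotoxic-like cells qualified, where 3 cells would be 0.820%, against 0.196% (0.104 to 0.335) of IEL cytotoxic-like cells. Ifit3 alone had a UMI in 5.44% of recirculating-like cells (median 5001 UMIs) and in 0.0820% of IL-17-type-like cells (median 6550 UMIs), so the larger share lay in the shallower cells. Among the 4 IEL cytotoxic-like clusters, 6 cells lay in cluster 6, 3 in cluster 8, 4 in cluster 9 and 0 of 1962 in cluster 7, where 3 cells would be 0.153%.

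The T cell identity of the co-expressing cells was read from markers. Each had at least 3 UMIs of the Cd3 chains, and all 11 T cell markers were detected in both sets. In sum these markers were at 6676 CPM in the IEL cells against 6535 CPM in the other IEL T-like cells. In TIL they were lower, at 5241.5 against 10034 CPM. The epithelial list was at 62.4 against 79.8 CPM in IEL and, on 6 UMIs, at 63.9 against 16.7 CPM in TIL. The macrophage or monocyte list and the neutrophil list had 0 UMIs in the 15 IEL cells and 1 and 3 UMIs in the 17 TIL cells. Of 6 markers of plasmacytoid dendritic cells, the main producers of type I interferon, 4 were detected in the IEL cells, at 392 CPM in sum against 368 CPM in the other IEL T-like cells, and 3 in the TIL cells, at 192 against 194 CPM. Siglech, their defining marker, had 0 UMIs in both sets. The IEL cells carried the cytotoxic list at 53175 CPM, against 38085 CPM in the other IEL cells. The TIL cells carried the recirculating list at 2621 CPM, against 1274 CPM in the others, and the IL-17-type list at 938 against 6224 CPM.

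The 33 genes that did not choose the cells were far above baseline in them. Summed per cell, they reached a median of 6220 CPM in the 15 IEL cells (lowest 1475, highest 19114) and 8388 CPM in the 17 TIL cells (lowest 1887, highest 18589). Cells with 0 of the 3 choosing genes had medians of 1222 CPM in IEL and 466 CPM in TIL. The ranges overlapped at the bottom: the lowest co-expressing cell of IEL lay below 34.2% of the other cells, and that of TIL below 5.49%. At the top they hardly did, since 9 other IEL cells (0.0992%) and 4 other TIL cells (0.0340%) reached the median of the co-expressing ones. The number of the 33 genes with a UMI had a median of 19 in the IEL and 17 in the TIL cells, against 6 and 3 in cells with 0 of the 3.

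Cells just outside the rule differed between the libraries. With 1 of the 3 genes, the median was 1266 CPM in IEL and 553 CPM in TIL, close to cells with 0. With 2 of the 3 it was 1381 CPM in IEL, still close, but 2401 CPM in TIL. The highest cells with 2 reached 9026 CPM in IEL and 11411 CPM in TIL. The percentile 95 was 5179 CPM with 2 against 2400 CPM with 0 in IEL, and 7072 against 1764 CPM in TIL. Over cells with 0 of the 3, and with the floor set in those, 0 of 16 genes were 2-fold higher in the IEL cells with 2 (0.0174% of all genes), and 13 of 13 in the TIL cells with 2 (0.965% of all genes). Of those 83 TIL cells, 19 were recirculating-like and 54 IL-17-type-like. Some genes passed 20 CPM only in the IEL cells with 2, and so had to lean upwards there. Among them Rtp4, Ifi206 and Ifih1 were past 2-fold, at 79.2, 53.6 and 20.3 CPM against 17.9, 19.9 and 9.28 CPM with 0. No gene of the list at 20 CPM in either of these IEL sets was 2-fold lower.

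**Figure D3:**
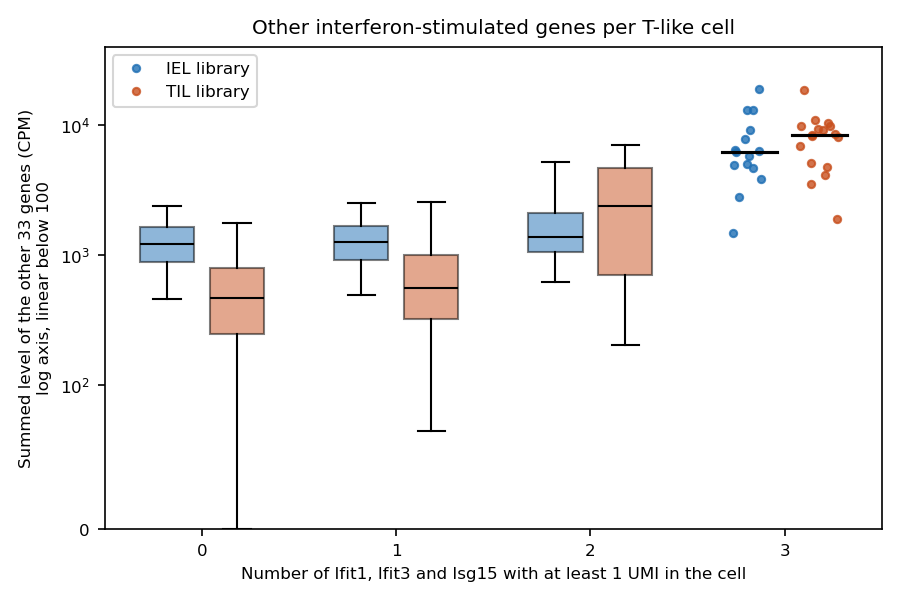
Summed level of the 33 other genes per T-like cell, in CPM (log axis, linear below 100), by how many of Ifit1, Ifit3 and Isg15 had a UMI. Boxes show the median and quartiles with whiskers at the percentiles 5 and 95, points are single co-expressing cells and black lines their medians (6220 CPM in IEL, 8388 CPM in TIL).

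Gene by gene, the co-expressing IEL cells exceeded the other IEL cells 2-fold or more for 28 of the 30 measured genes (8.73% of all measured genes), and 31 of 31 in TIL (17.8%). In the other direction there were 0 in either library, where 12% of all measured genes were lower in IEL and 18.9% in TIL. A gene at a low baseline passes that floor only by being high in the co-expressing cells, so these counts had to lean upwards. Without Ifit3b the IEL count was 27 of 29. With the floor of 20 CPM set in the other cells, 16 of 18 genes were higher in IEL (4.1% of all genes) and 13 of 13 in TIL (7.66%). Their median log2 ratios were 2.60 and 3.34, against -0.11 and -0.22 over all genes. Leaving out each co-expressing cell in turn kept these counts at 16 and 13, with medians between 2.33 and 2.69 in IEL and between 3.07 and 3.44 in TIL. The 2 IEL genes within 2-fold were Irf1 and Ifi27l2a.

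Among the sensors and factors, Irf7 stood at 624 CPM in the IEL co-expressing cells against 49.7 CPM in the others (log2 ratio 3.65, 3.29 to 3.99) and at 362 against 24.8 CPM in TIL (3.87, 3.34 to 4.36). Zbp1 stood at 276 against 27.6 CPM in IEL (3.32, 2.76 to 3.83) and at 533 against 32.99 CPM in TIL (4.01, 3.58 to 4.42). For both, the intervals of the 2 libraries overlapped. Ifih1, the sensor of long double-stranded RNA, had 11 UMIs in either set of cells, at 3.32 (2.31 to 4.17) in IEL and 5.34 (4.32 to 6.20) in TIL. Stat2 and Irf9, which take part in the activating complex, had log2 ratios of 2.01 and 2.03 in IEL and 3.93 and 2.63 in TIL.

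Irf1 stood apart from these. It was at 223 CPM in the co-expressing and 219 CPM in the other IEL cells (0.02, -0.60 to 0.59), and at 256 against 68.6 CPM in TIL (1.90, 1.26 to 2.47). When the other TIL cells were weighted to the clusters the co-expressing cells came from, the TIL value was 0.91, below 2-fold. Among cells with a γδ constant-region UMI and no Trac UMI, the IEL value was 1.08 on 2 co-expressing cells. The 24 UMIs of Irf1 in TIL lay in 12 of the 17 cells.

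The effectors with a near-silent baseline passed the floor only through the co-expressing cells, so their ratios had to be large and are given as values. Rsad2 stood at 312 against 11.1 CPM in IEL (4.81, 4.28 to 5.30) and at 256 against 1.65 CPM in TIL (7.27, 6.59 to 7.90). Oasl1, which holds back Irf7 translation, stood at 160 against 3.48 CPM in IEL (5.53, 4.75 to 6.22) and at 128 against 0.670 CPM in TIL (7.58, 6.54 to 8.49). Usp18, the protease that removes Isg15 and blocks the receptor, stood at 98.0 against 2.65 CPM in IEL (5.21, 4.18 to 6.08) and at 107 against 0.647 CPM in TIL (7.36, 6.23 to 8.35). In each of these, the levels in the co-expressing cells differed by less than 2-fold between the libraries, while the baselines differed by more. Cmpk2, a nucleotide kinase that lies beside Rsad2 on chromosome 12, had 6 UMIs in IEL (5.42) and 11 in TIL (6.93). Ifi44 had 6 UMIs in TIL against 9 in all other T-like cells, which gave the highest log2 ratio, 9.26, with a wide interval (7.49 to 10.92). Of the 33 genes, Oasl2, Ifi44 and Oas2 were below 20 CPM in IEL and Ifit3b and Oas2 in TIL, with at most 1 UMI each in the co-expressing cells.

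Bst2, which passed 20 CPM in the other cells of both libraries, stood at 535 against 56.2 CPM in IEL (3.25, 2.86 to 3.62) and at 1076 against 69.2 CPM in TIL (3.96, 3.66 to 4.24). Rtp4, which did so in IEL only, stood at 428 against 20.4 CPM in IEL (4.39, 3.94 to 4.80) and at 160 against 3.35 CPM in TIL (5.58, 4.72 to 6.32). Epsti1 was at 1.33 in IEL and 3.05 in TIL, Ifi47 at 1.87 and 2.21, and Ifi35 at 2.41 and 2.68. With the others weighted to the same clusters the TIL value of Epsti1 was 1.08, and the median over the 31 genes of TIL moved from 3.96 to 3.23 while that of the 30 IEL genes moved from 3.13 to 3.03, so part of the TIL ratio lay between subsets.

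**Figure D4:**
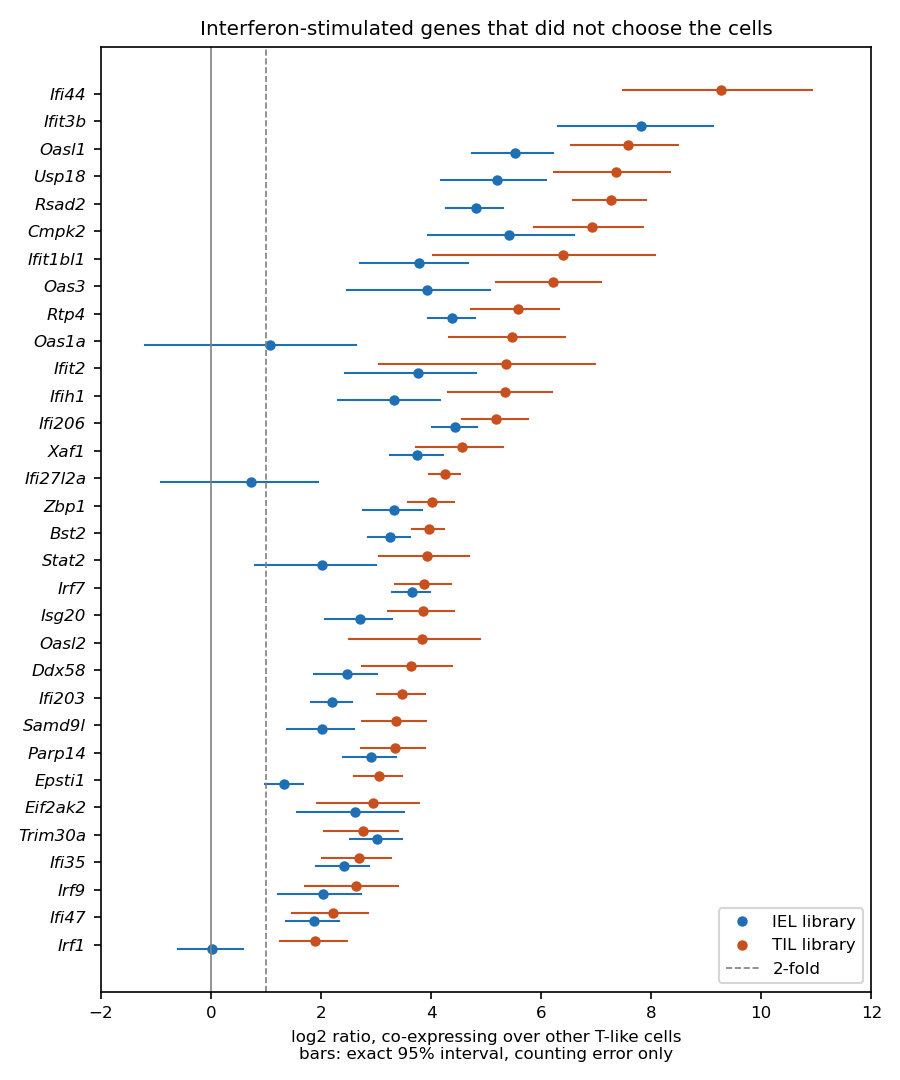
Log2 ratio of each gene that did not choose the cells, co-expressing over other T-like cells of the same library (IEL blue, TIL orange), with exact 95% intervals for counting error and a dashed line at 2-fold. All plotted TIL points lie right of the line, and in IEL those of Irf1 (0.02) and Ifi27l2a (0.72) lie left of it.

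The few co-expressing cells held a large part of some genes' transcripts. They gave 0.164% of all UMIs of the IEL T-like cells and 0.108% of those of TIL, but 36.8% and 40.5% of the Ifit3 UMIs, which the choice favours. Of genes that did not choose the cells, they gave 4.41% and 14.4% of the Rsad2 UMIs, 7.06% and 17.1% of Oasl1 and 5.73% and 15.2% of Usp18. Of Irf1 they gave 0.167% and 0.403%. Some of these counts rested on 1 cell: 17 of the 35 Rsad2 UMIs of the IEL cells came from 1 cell, whereas the 24 of TIL lay in 10 cells with at most 5 each.

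The 2 sets of co-expressing cells were also set side by side. Here the 35 measured genes included Ifit1, Ifit3 and Isg15, which chose both sets of cells and lay within 2-fold. TIL had the 2-fold higher level for 8 of the 35 measured genes (17.6% of all genes) and the lower one for 4 (21%). The median log2 ratio was -0.09, which was the value of Ifit1. For most the interval included equality, given 15 and 17 cells and 112195 and 93867 UMIs. Ifi27l2a differed most, at 44.6 CPM (5 UMIs, in 2 cells) in IEL and 1151 CPM (108 UMIs, in 13 cells) in TIL (4.69, 3.42 to 6.34). Rtp4, at 428 and 160 CPM (-1.42, -2.36 to -0.56), and Xaf1, at 339 and 160 CPM (-1.08, -2.05 to -0.19), were lower in TIL, as they were at baseline. Bst2 was higher, at 535 and 1076 CPM (1.01, 0.53 to 1.49).

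Other genes of the interferon pathway were read in the same cells, from lists whose counts lean on no test. Transcripts of Ifnb1, Ifna4, Ifnk, Ifnl2 and Ifnl3 were not detected in T-like cells of either library, and the floor of 3 UMIs over a library is 0.0440 CPM in IEL and 0.0347 CPM in TIL. Ifng, the gene of interferon-γ, was at 65.3 CPM in IEL against 5.37 CPM in TIL outside the co-expressing cells (-3.60, -3.75 to -3.47). In the co-expressing cells it was at 312 CPM in IEL (2.26, 1.73 to 2.73; 35 UMIs in 9 of 15 cells) and 74.6 CPM in TIL (3.79, 2.47 to 4.85; 7 UMIs in 2 of 17 cells). The receptor genes Ifnar1 and Ifngr1 stayed within 2-fold in both libraries. Ifnar2 was within 2-fold in IEL and lower in TIL on 2 UMIs (-1.14, -4.18 to 0.72), and Il10rb, a receptor chain for interferon-λ, was lower in both on 1 and 2 UMIs (-1.82 and -1.29); these intervals included equality. Ifngr2 had 15 UMIs in the TIL cells (1.51, 0.68 to 2.24) and 0 in the IEL cells, where 3 UMIs would be 26.7 CPM against 18.7 CPM in the others.

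Among the regulators, the feedback inhibitors Socs1 and Socs3 were higher in the TIL co-expressing cells (4.20-fold, 2.52 to 6.56, and 5.65-fold, 4.01 to 7.73), while in IEL their log2 ratios were -0.09 and 0.83 with intervals that included equality. The difference between the libraries was not tested. Of 10 sensing adaptors, 4 were measured in either library, and Myd88 was past 2-fold in both on 8 UMIs each (1.27, 0.06 to 2.25, and 1.20, -0.01 to 2.18). Cgas was higher in IEL on 8 UMIs (2.04, 0.83 to 3.03) and had 0 UMIs in the TIL cells, and Tmem173, the gene of Sting, was lower in TIL on 1 UMI (-1.73, -7.03 to 0.75).

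Of 18 genes typical of interferon-γ, such as the guanylate-binding proteins that attack pathogen vacuoles, 10 of 14 measured were higher in the IEL and 13 of 17 in the TIL co-expressing cells, with median log2 ratios of 1.33 and 2.50, where 8.73% and 17.8% of all genes were higher. With the floor set in the other cells, 8 of 12 were higher in IEL (4.1% of all genes) and 8 of 11 in TIL (7.66%), with medians of 1.09 and 2.33. Gbp6 was at 348 against 19.7 CPM in IEL (4.14, 3.64 to 4.60) and at 288 against 28.4 CPM in TIL (3.34, 2.73 to 3.88). Gbp4 was at 1.97 and 2.93. At baseline, 6 of 13 were lower and 0 higher in TIL, where 13.8% and 11.1% of all genes were, and with the floor on the mean of both libraries 6 of 12 were lower (11.6%). They were led by Gbp9 (-1.99), Gbp8 (-1.93) and Gbp4 (-1.90).

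Of 54 other interferon-stimulated genes, 33 of 37 measured were higher in the IEL and 36 of 40 in the TIL co-expressing cells, with medians of 2.62 and 2.98, where 8.73% and 17.8% of all genes were higher. With the floor set in the other cells these became 14 of 17 in IEL (4.1%) and 11 of 15 in TIL (7.66%), with medians of 1.82 and 2.41. Ifi208 was at 285 against 12.9 CPM in IEL and at 95.9 against 2.16 CPM in TIL. Ly6a, the Sca-1 antigen, went apart: outside the co-expressing cells it was at 1.42 CPM in IEL against 348 CPM in TIL (7.93, 7.65 to 8.24), and in TIL the co-expressing cells did not exceed that level (394 CPM; 0.18, -0.33 to 0.64). In the IEL cells it had 11 UMIs, 9 of them in 1 cell. The chemokine gene Cxcl10 reached 588 CPM in the IEL cells, but 64 of its 66 UMIs came from 1 cell, and 394 CPM in TIL on 37 UMIs in 9 cells.

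All genes with at least 50 CPM and 10 UMIs in the co-expressing cells were ranked, apart from Ifit1, Ifit3 and Isg15. In TIL, 8 of the 10 largest ratios were members of the list, which held 26 of the 1416 ranked genes. In IEL it was 4 of 10, where the list held 23 of 1806. The ranking admits genes with a low baseline only where they were high in the co-expressing cells. Its ratios, like those of the pathway lists above, were not weighted to the same clusters, so they also hold differences between subsets. The 10 largest ratios outside the list in TIL were those of Iigp1, Slfn5, Ifi213, Rnf213, Sox4, Ms4a4b, Slfn8, Gbp9, Gbp2 and Herc6. Of these, Iigp1, an immunity-related GTPase, was at 170 against 2.58 CPM (6.05, 5.22 to 6.78), with 1 UMI in the IEL cells. Slfn5 was at 5.30 in TIL and 4.70 in IEL, Ifi213 at 5.05 and 4.64, Rnf213 at 4.60 and 2.93, and Ms4a4b at 4.29 and 2.62. Slfn8, Gbp9 and Herc6 ran from 3.71 to 4.07 in TIL and from 1.53 to 3.13 in IEL, and Gbp2, at 3.72 in TIL, had 2 UMIs in the IEL cells. Sox4, the only one outside the interferon lists, had 11 of its 12 TIL UMIs in 1 cell and 0 in IEL.

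The promoter letters were set beside these ratios for the 26 genes in the RefSeq table that did not choose the cells, Ifit3b left out. Taken whatever their level, the 9 with response element letters had median log2 ratios of 3.25 in IEL and 5.19 in TIL, and the 17 without had 2.72 and 3.83. The groups overlapped widely in TIL, from 2.77 to 7.27 with the letters and from 1.90 to 9.26 without. Rsad2 and Bst2 held them, and Oasl1, Cmpk2, Ifi44 and Irf7 did not in this window.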

How the data were processed

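The deposited matrices hold UMI counts per gene and barcode as integers, per the file headers, which name Cell Ranger 6.1.1; the authors did not normalize them, and the submitters' processing notes name the mm10 build. How barcodes were called, and any sort or gate, is not given in the sources used here, and the protocol names tumor tissue for both samples. Cells with at least 500 genes, 1000 UMIs and at most 10% mitochondrial UMIs were kept (9128 of 9398 IEL, 12407 of 13245 TIL barcodes, with 69414155 and 94953893 UMIs in all). The 2 libraries went into 1 clustering with no batch term, leaving the listed genes and other interferon-stimulated genes out: 2000 variable genes, 30 principal components, 15 neighbours and Leiden at resolution 1.0 (igraph 0.11.9, scikit-learn 1.9.0) gave 21 clusters. A cluster was named from at least 3 markers; a difference from the study may come from these rebuilt names. No doublet caller was run; a cluster of mixed markers with high UMI totals was left out of the T-like cells.

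Counts were summed over cells and given as CPM, with exact intervals (scipy 1.17.1) that treat UMIs or cells as independent. Where a group had 0 UMIs, 3 were put in their place and the ratio is a bound. For shares at equal depth, each cell was thinned to 2000 UMIs, which left out 73 IEL and 56 TIL T-like cells. The calculations were tested on simulated counts. With 1 library a group, no p-value was given. All genes of the list were accounted for; further genes came from named pathway lists, with their largest ratios, and from the 10 largest ratios outside the list in the library with more co-expressing cells. The floors on the other cells or on the mean of both groups, the weighting to the same clusters, the values without Ifit3b, and single genes taken up for their values, such as Irf1, Ly6a and Cxcl10, were chosen after seeing the data. An item of one pathway list and the counts of the list that held it are not reported here. The members and lists were chosen with earlier results of these data known. Sequences are from RefSeq (GRCm38.p6); shared transcript ends were counted on GENCODE transcripts as 31-base words.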

Additional observations from a re-analysis of the deposited data

Results flagged for a closer look

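Barcodes with Ifit1, Ifit3 and Isg15 UMIs together were also found outside the T-like cells, which no comparison above uses. In the IEL library they were 4 of 311 such barcodes (1.29%, 0.352 to 3.26), of which 2 lay in a cluster of 19 IEL cells with markers of several cell types and 2 failed the filter on cells. In the TIL library they were 4 of 1456 (0.275%, 0.0749 to 0.702), of which 3 lay in the deep cluster of mixed markers and 1 in the myeloid-like cluster of 229 cells. The IEL interval lay above that of the IEL T-like cells, while the TIL interval overlapped that of the TIL T-like cells. Each share rests on 4 barcodes, and no more is read from it.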

How the results depend on the processing

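Over the alternatives run, no value past 2-fold changed sign. The counts over T-like cells of 1 gene higher and 9 lower in TIL became 2 and 14 at a floor of 5 CPM, 5 lower at 50 CPM, and 0 higher without the recirculating-like cells and cluster 19. Within cytotoxic-like cells, 2 higher and 3 lower became 1 and 1 with a cell-by-cell rule, 5 lower at a floor of 5 CPM, and 1 lower both at 50 CPM and with a floor on the mean of both libraries; the lower calls of Rtp4 and Ifi206 rest on the floor. The share of co-expressing cells depends on depth and on the rule. With at least 2 UMIs of each gene it was 0.0220% in IEL (2 cells) and 0.0594% in TIL (7 cells), and after thinning to 2000 UMIs 0.0333% (3 cells) and 0.0341% (4 cells). Among cells with a γδ constant-region UMI and no Trac UMI it was 0.0998% in IEL (2 cells) and 0.177% in TIL (13 cells). Both lay within the interval of their library over all T-like cells, and 2 IEL cells are too few to rank the libraries. The median log2 ratio of the co-expressing IEL cells became 4.21 and 4.05 with the first 2 of these rules. That of TIL was 3.12 with the cell-by-cell rule for T cells, 3.23 with the others weighted to the same clusters and 3.34 with the floor in the other cells, which counted 16 higher genes for IEL and 13 for TIL. The floors test fewer genes and the rules leave fewer cells by construction; the cause of the other shifts was not tested. No paired analysis was possible because each group had 1 library. With 15 and 17 cells, the exact interval of a gene with 0 UMIs reached 32.9 CPM in IEL and 39.3 CPM in TIL. The floor of 3 UMIs used for ratios was 26.7 CPM in IEL and 32.0 CPM in TIL.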
